A study of Arabidopsis thaliana with 23 samples.

Results

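The 10 genes described here encode the writers, a reader and the erasers of one chromatin mark in Arabidopsis, trimethylation of lysine 27 on histone H3 (H3K27me3). They were listed by identifier, and the choice was made with earlier results of these data known. All 10 were found in both deposited count tables, out of 32833 genes in the axillary table and 32224 complete genes in the seedling table. CLF (AT2G23380) and SWN (AT4G02020) encode the methyltransferases of Polycomb Repressive Complex 2 (PRC2). FIE (AT3G20740) and MSI1 (AT5G58230) encode its WD40-repeat subunits, and EMF2 (AT5G51230) and VRN2 (AT4G16845) its alternative VEF-domain subunits. LHP1 (AT5G17690, listed as TFL2 in the reference gene table) encodes a chromodomain protein that binds the mark. REF6 (AT3G48430), ELF6 (AT5G04240) and JMJ13 (AT5G46910, a name given with the choice of genes and absent from the reference gene table) encode Jumonji demethylases that remove it.

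PRC2 places methyl groups on H3K27 at genes that are to stay silent, and in plants the mark covers many regulators of meristems, flowering and embryo development. CLF and SWN are partly redundant catalytic subunits, and the VEF subunit distinguishes one form of the complex from another, with EMF2 best known for holding back flowering and VRN2 for the memory of winter cold. FIE and MSI1 are shared by the forms of the complex, and MSI1 also belongs to the chromatin assembly factor CAF-1, which loads histones onto newly made DNA. H3K27me3 is renewed as cells divide and is removed where silenced genes are switched on.

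All plants were Arabidopsis thaliana of the Col-0 background. Whole wild-type seedlings were grown for 7 days on plates with 2.5 µM rac-GR24, a synthetic strigolactone analogue, or with its solvent DMSO. Axillary tissue, which held the buds together with the leaf axil beneath them, was taken from intact wild type (WT), from intact brc1-2 and from WT decapitated by cutting off the main shoot. The mutant allele brc1-2 affects BRANCHED1 (BRC1), a TCP transcription factor that restrains bud outgrowth, and no source used here gives the time between decapitation and harvest. Each of the 5 groups had 3 RNA-seq libraries, and 8 CUT&Tag samples of the series were not analysed here. Nothing in the labels says that the libraries within a group are separate plants or harvests, so each p-value measures only the spread among these libraries, which may be technical. In bulk tissue, fewer cells of a type and less RNA per cell cannot be told apart.

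The seedling libraries held 31209344 to 44442493 counts each and the axillary libraries 47462342 to 61228766. BRC1 held 373 to 423 counts in intact WT and 2 to 4 in brc1-2 (log2 change -7.20 ± 0.26 SE, edgeR quasi-likelihood adjusted p = 2.3e-27), 77 to 99 after decapitation, and 0 to 2 on DMSO against 94 to 279 on rac-GR24. The meristem gene STM stood at a mean of 38.7 to 46.3 CPM (counts scaled to library size) in the axillary groups and at 2.41 to 4.11 in seedlings, while LAS, of the same list, stood at 0.74 to 0.90 in the axillary groups and at 1.60 to 1.91 in seedlings. The root genes PLT1 and PLT2 held at most 2 counts in any axillary library, but SCR (35.8 to 43.0 CPM against 24.9 to 28.7 in seedlings) and SHR (25.2 to 28.4 against 21.2 to 22.0), listed with them, were present in axillary tissue. Of 4 anther genes, all 4 were called higher in brc1-2 and 2 after decapitation, with LAP5 at 0.19 ± 0.03 CPM in intact WT, 4.08 ± 0.53 in brc1-2 and 0.43 ± 0.19 after decapitation. Of all genes tested, 30.5% were called higher in brc1-2 and 29.5% after decapitation. MS1, another of the 4, held no counts in either WT group and was testable only because of brc1-2. A9 held 0 to 2 counts in intact WT, 7 to 14 after decapitation and 162 to 228 in brc1-2. The count of anther genes called thus supports nothing further.

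All 10 genes were detected, with 396 to 3703 counts in every library, and all passed the filter on low counts in both tables. Levels are given as RPKM, the reads on a gene scaled by its exon length and by the library's size, calculated from the deposited counts and exon lengths with library sizes adjusted within each table. Among tested genes, RPKM of JMJ13 in intact WT stood at percentile 23.59 to 25.29, and ELF6 there at 35.88 to 37.32. MSI1 after decapitation stood at 86.4 to 86.55. MSI1 was the most abundant transcript in every group, at 34.9 ± 1.20 RPKM in intact WT (SD, n = 3) and between 29.6 and 39.0 in all 5 groups. In intact WT it was followed by FIE at 15.8 ± 0.22, EMF2 at 12.9 ± 0.44, VRN2 at 12.4 ± 0.48 and LHP1 at 11.7 ± 0.77. The last 3 of these overlapped from neighbour to neighbour, library by library. Below them came SWN at 9.11 ± 0.42, CLF at 6.86 ± 0.21, REF6 at 6.23 ± 0.21, ELF6 at 4.97 ± 0.19 and JMJ13 at 2.44 ± 0.16, each with all 3 libraries below those of the gene before it. The 3 demethylases thus occupied the bottom of the order in intact axils.

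The order in DMSO seedlings differed. The demethylase transcripts stood at 11.7 ± 1.31 RPKM for REF6, 9.92 ± 0.27 for ELF6 and 8.10 ± 0.66 for JMJ13, all above their levels in the axillary groups. SWN stood at 17.0 ± 0.31 RPKM, and EMF2 and VRN2 at 18.8 ± 0.72 and 18.03 ± 0.12. FIE at 14.2 ± 0.34, MSI1 at 31.8 ± 1.11 and LHP1 at 7.57 ± 0.06 were instead below every axillary group, and LHP1 was the lowest of the 10 in both seedling groups. The mean of CLF, 8.86 ± 0.53, lay between that of intact WT and those of the other axillary groups. The range from the lowest to the highest member was 4.199-fold in DMSO seedlings and 14.3-fold in intact WT. The batch label differs between seedling and axillary samples, and each table was scaled alone, so tissue and batch cannot be told apart and these levels are set side by side without a test.

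**Figure D1:**
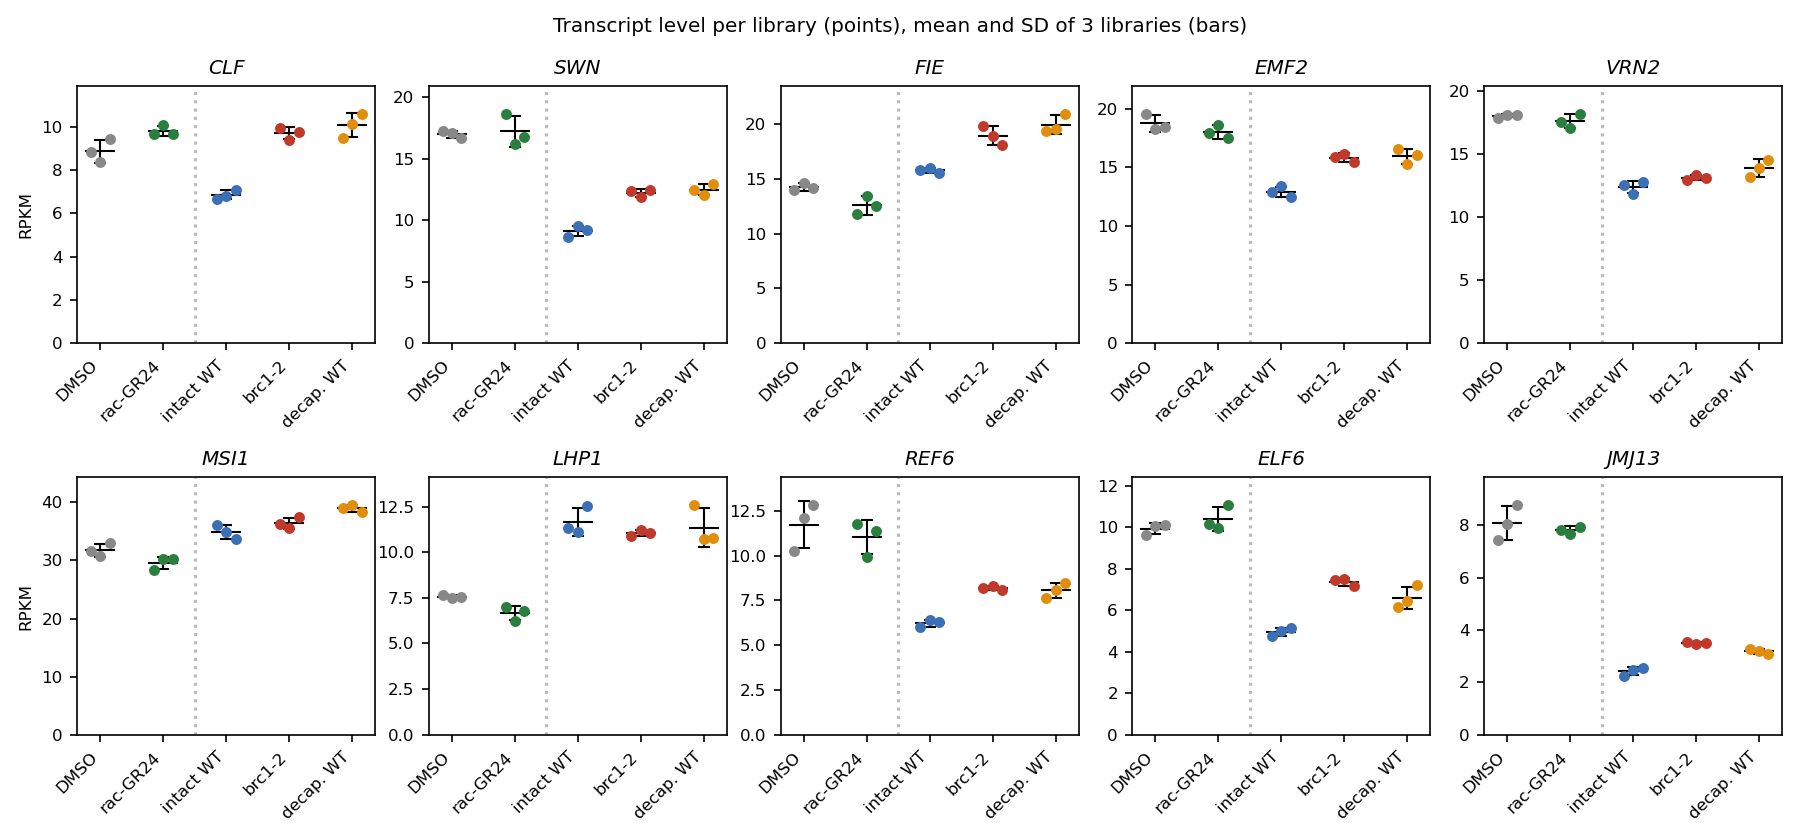
Transcript level of each of the 10 genes in RPKM (vertical axis, starting at 0) in DMSO and rac-GR24 seedlings and, right of the dotted line, in axillary tissue (intact WT, then brc1-2, then decapitated WT). Points are libraries and bars are the mean and SD of 3 libraries. For CLF, SWN, FIE, EMF2, REF6, ELF6 and JMJ13 every brc1-2 and decapitated library lies above every intact WT library, and LHP1 overlaps across the 3 axillary groups.

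Loss of BRC1 was compared in intact plants, which asks how the H3K27me3 machinery differs when buds lack this repressor. In brc1-2, 7 of the 10 genes rose and 0 fell, where 30.5% of all 21539 genes tested rose and 30.7% fell, 61.1% in all. The share that rose was larger among longer genes, given with the values on length. Those that rose were CLF, SWN, FIE, EMF2, REF6, ELF6 and JMJ13, by 19.9% to 48.2%. VRN2, MSI1 and LHP1 did not pass the test. The median log2 change of the 10 genes was 0.35, beside 0.00430 over all genes tested. The libraries of the 2 genotypes did not overlap for 8 of the 10 genes, all higher in brc1-2, where 33.2% of all genes were higher and 32.6% lower without overlap.

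Decapitation was compared with the same intact WT libraries, so these 2 comparisons share their controls and their values are set side by side only. After decapitation 9 of the 10 genes rose and 0 fell, against 29.5% and 33.7% of all genes tested, 63.2% in all. LHP1 alone did not pass. The median log2 change of the 10 genes was 0.36, beside -0.03 over all genes. All 9 that rose had 3 decapitated libraries above the 3 intact ones, beside 30.7% of all genes higher and 35.2% lower without overlap.

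Between decapitated WT and brc1-2, which tests the difference between the 2 effects directly, MSI1 was higher and ELF6 lower after decapitation, and the other 8 genes did not pass. Of all genes tested, 24.6% were higher and 24.3% lower in this comparison, 48.9% in all. On rac-GR24 0 of the 10 genes passed in either direction, where 12.3% of 21063 genes rose and 11.9% fell, 24.3% in all. At an unadjusted edgeR p under 0.05 the count was 1 of 10, and DESeq2 and limma-voom called 0 of 10.

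**Figure D2:**
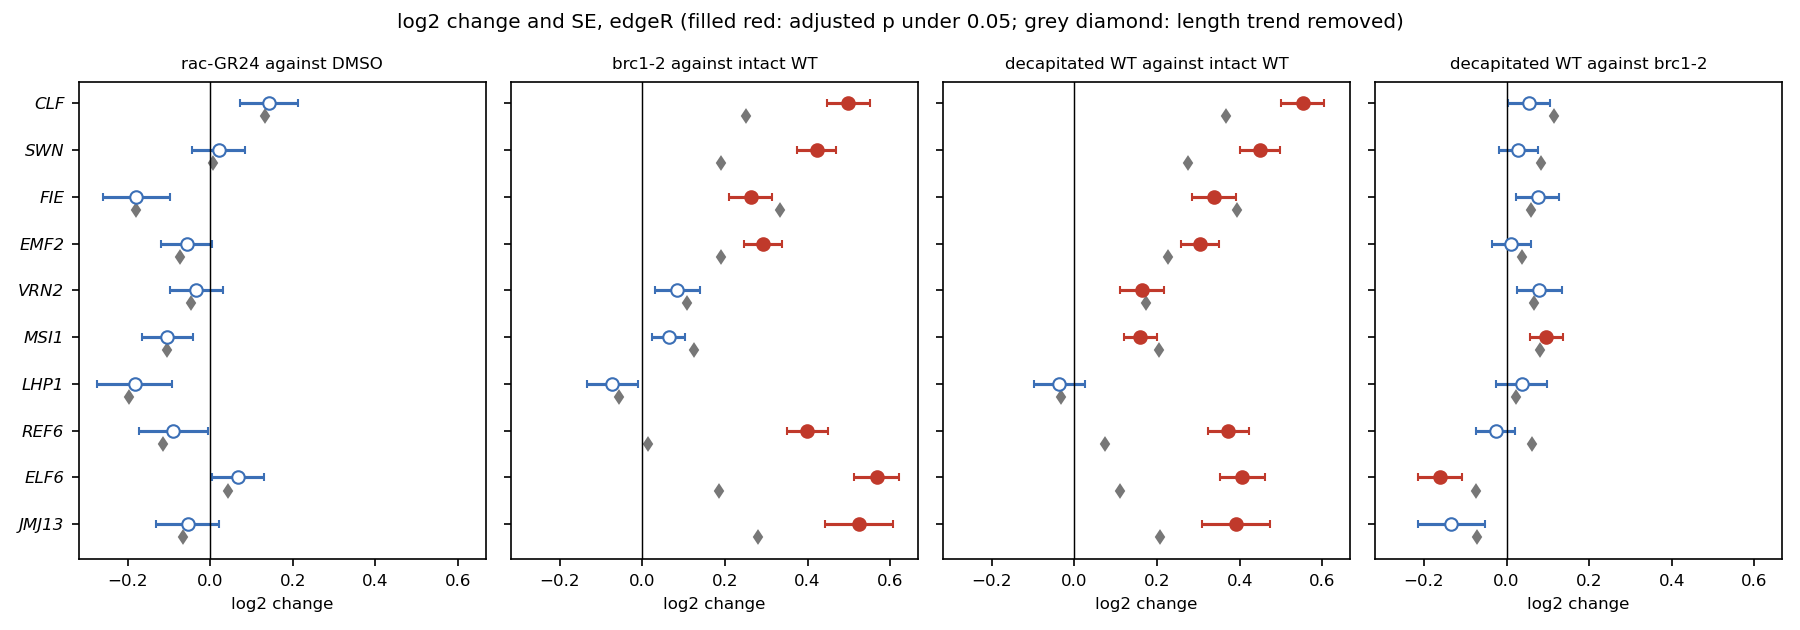
Log2 change of each gene with its SE (horizontal axis) in the 4 comparisons, with called genes in filled red circles (edgeR quasi-likelihood adjusted p under 0.05, n = 3 libraries per group) and grey diamonds for the change with the length trend removed. In brc1-2 the called changes run from 0.26 for FIE to 0.57 for ELF6, after decapitation from 0.16 for MSI1 to 0.55 for CLF, and the rac-GR24 panel holds no called gene.

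The methyltransferase genes CLF (chromosome 2, 9955092 to 9960386, plus strand, TAIR10) and SWN (chromosome 4, 886580 to 891987, plus strand) both rose in brc1-2 and after decapitation. CLF measured 6.68, 6.82 and 7.09 RPKM in the intact WT libraries, 9.94, 9.39 and 9.77 in brc1-2, and 9.49, 10.1 and 10.6 after decapitation. All 6 libraries from brc1-2 and decapitated plants were above all 3 from intact WT, and they overlapped with each other. The log2 change of CLF was 0.50 ± 0.05 in brc1-2 (41.3% higher, edgeR quasi-likelihood adjusted p = 1.4e-11) and 0.55 ± 0.05 after decapitation (46.7% higher, edgeR adjusted p = 6.1e-13), the largest of the 10 after decapitation in this fit. With a trend on gene length removed, both calls held at 0.25 and 0.37, and FIE (0.39) was then the largest after decapitation. Such a size was not rare among all genes, since 27.1% of those tested moved at least as far in brc1-2 in one direction or the other.

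SWN, the other vegetative methyltransferase, measured 8.67, 9.49 and 9.18 RPKM in intact WT, 12.3, 11.9 and 12.4 in brc1-2, and 12.4, 12.04 and 12.9 after decapitation. The intact WT libraries again lay below all others without overlap. Its log2 change was 0.42 ± 0.05 in brc1-2 (edgeR quasi-likelihood adjusted p = 1.8e-10) and 0.45 ± 0.05 after decapitation (edgeR adjusted p = 2.9e-11). Decapitated WT and brc1-2 did not differ past the threshold for either gene, with a log2 difference of 0.05 for CLF (95% interval -0.05 to 0.16) and 0.03 for SWN (-0.07 to 0.12).

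The WD40 subunit FIE (chromosome 3, 7248809 to 7252452, minus strand), shared by all known forms of PRC2, measured 15.8, 16.0 and 15.6 RPKM in intact WT, 19.8, 18.9 and 18.1 in brc1-2, and 19.3, 19.5 and 20.9 after decapitation. No library of either group fell to the intact WT range. FIE rose by 0.26 ± 0.05 on the log2 scale in brc1-2 (edgeR quasi-likelihood adjusted p = 3.0e-05) and by 0.34 ± 0.05 after decapitation (edgeR adjusted p = 2.8e-07).

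MSI1 (chromosome 5, 23556012 to 23558245, plus strand), the histone-binding WD40 subunit, measured 36.1, 34.9 and 33.7 RPKM in intact WT, 36.3, 35.6 and 37.4 in brc1-2, and 39.0, 39.5 and 38.4 after decapitation. Intact WT and brc1-2 overlapped, while the decapitated libraries lay above both. Its log2 change was 0.06 ± 0.04 in brc1-2 (edgeR quasi-likelihood adjusted p = 0.17) and 0.16 ± 0.04 after decapitation (edgeR adjusted p = 5.4e-04). Directly compared, decapitated WT was higher than brc1-2 by 0.10 ± 0.04 (edgeR adjusted p = 0.042). That call ended in 7 of 15 alternative settings, with edgeR, DESeq2 or voom adjusted p between 0.0058 and 0.17, among them the fits without brc1-2 replicate 1 (0.094) or 2a (0.17) and without decapitated WT replicate 1 (0.081) or 2 (0.12). Of the exon bases of MSI1, 8.12% lie under FHIT on the other strand, which held 1222 to 1448 counts in axillary libraries, and no source used here says whether reads were counted by strand.

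The VEF subunit genes are EMF2 (chromosome 5, 20823644 to 20829644, plus strand) and VRN2 (chromosome 4, 9476069 to 9479878, plus strand). EMF2 measured 12.9, 13.4 and 12.5 RPKM in intact WT, 15.9, 16.2 and 15.4 in brc1-2, and 16.5, 15.3 and 16.1 after decapitation. The intact WT libraries lay below the other 6. EMF2 rose by 0.29 ± 0.05 on the log2 scale in brc1-2 (edgeR quasi-likelihood adjusted p = 5.4e-07) and by 0.30 ± 0.05 after decapitation (edgeR adjusted p = 2.3e-07).

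VRN2, whose protein is known to be kept low by oxygen-dependent degradation except in places such as meristems, measured 12.6, 11.8 and 12.8 RPKM in intact WT. It measured 12.9, 13.3 and 13.1 in brc1-2 and 13.2, 13.9 and 14.6 after decapitation. All libraries of both groups lay above those of intact WT by a narrow margin. The log2 change was 0.08 ± 0.05 in brc1-2 (edgeR quasi-likelihood adjusted p = 0.18, 95% interval -0.02 to 0.19) and 0.16 ± 0.05 after decapitation (edgeR adjusted p = 0.0079). The call after decapitation ended without intact WT replicate 2 (edgeR adjusted p = 0.059) and without decapitated WT replicate 3 (edgeR adjusted p = 0.051).

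LHP1 (chromosome 5, 5827142 to 5829763, minus strand), the reader of the mark, was called in none of the 4 comparisons. It measured 11.3, 11.1 and 12.5 RPKM in intact WT, 10.9, 11.2 and 11.1 in brc1-2, and 12.6, 10.7 and 10.8 after decapitation. The 3 groups overlapped, with 1 high library in each WT group. The log2 change was -0.07 ± 0.06 in brc1-2 (edgeR quasi-likelihood adjusted p = 0.31) and -0.04 ± 0.06 after decapitation (edgeR adjusted p = 0.62). The 95% intervals, -0.20 to 0.05 and -0.16 to 0.09, did not reach the rise of CLF, SWN, FIE or EMF2, although a p that misses the threshold does not show that groups were equal.

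Among the demethylase genes, REF6 (chromosome 3, 17935256 to 17940792, plus strand), whose protein finds its targets with its own zinc fingers, measured 5.996, 6.40 and 6.28 RPKM in intact WT. It measured 8.22, 8.32 and 8.11 in brc1-2 and 7.65, 8.08 and 8.47 after decapitation. Intact WT was lower than both groups without overlap. The log2 change was 0.40 ± 0.05 in brc1-2 (edgeR quasi-likelihood adjusted p = 1.1e-09) and 0.37 ± 0.05 after decapitation (edgeR adjusted p = 5.9e-09). Both calls ended when a trend on gene length was removed, given with the values on length.

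ELF6 (chromosome 5, 1169153 to 1174992, plus strand), the closest relative of REF6 among the 3, measured 4.76, 5.02 and 5.13 RPKM in intact WT, 7.47, 7.50 and 7.14 in brc1-2, and 6.13, 6.46 and 7.19 after decapitation. Its log2 change was 0.57 ± 0.05 in brc1-2 (48.2% higher, edgeR quasi-likelihood adjusted p = 1.4e-12) and 0.41 ± 0.05 after decapitation (edgeR adjusted p = 1.2e-08). The first was the largest of the 10 in this fit, but with the length trend removed it was 0.18, below FIE, JMJ13, CLF, SWN and EMF2, and the call after decapitation ended (0.11, edgeR adjusted p = 0.056). Intact WT lay below both groups, and the decapitated libraries, of which replicate 3 was the highest, overlapped brc1-2. Directly compared, decapitated WT was lower than brc1-2 by a log2 difference of -0.16 ± 0.05 (edgeR adjusted p = 0.011). That call ended without decapitated WT replicate 1 (edgeR adjusted p = 0.12), with the length trend removed and at a threshold of 0.01, and its adjusted p ranged from 2.5e-04 to 0.21 over 15 settings.

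JMJ13 (chromosome 5, 19046339 to 19051379, plus strand), the least abundant of the 10 in axillary tissue, measured 2.26, 2.48 and 2.56 RPKM in intact WT, 3.57, 3.45 and 3.502 in brc1-2, and 3.28, 3.20 and 3.10 after decapitation. The 3 groups were fully separated, with intact WT lowest and brc1-2 highest. The log2 change was 0.53 ± 0.08 in brc1-2 (edgeR quasi-likelihood adjusted p = 3.1e-07) and 0.39 ± 0.08 after decapitation (edgeR adjusted p = 5.8e-05). The difference between decapitated WT and brc1-2, -0.13 ± 0.08, did not pass (edgeR adjusted p = 0.17). ELF6 and JMJ13 share 4.09% and 6.83% of their exon bases with genes on the other strand that held 0 counts in all axillary libraries.

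In seedlings, the levels on rac-GR24 stayed near those on DMSO for all 10 genes. CLF measured 8.82, 8.35 and 9.41 RPKM on DMSO and 9.68, 10.1 and 9.64 on rac-GR24, higher without overlap. FIE measured 13.98, 14.6 and 14.1 on DMSO and 11.8, 13.5 and 12.5 on rac-GR24, lower without overlap. LHP1 measured 7.63, 7.51 and 7.56 on DMSO and 6.98, 6.22 and 6.80 on rac-GR24, also lower without overlap. Together with MSI1, 3 of the 10 genes were lower without overlap and 1 was higher, beside 19.5% and 19.4% of all genes.

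The largest fitted changes on rac-GR24 were those of LHP1 and FIE, -0.18 ± 0.09 (edgeR quasi-likelihood adjusted p = 0.16) and -0.18 ± 0.08 (edgeR adjusted p = 0.12), and of CLF, 0.14 ± 0.07 (edgeR adjusted p = 0.16). The 95% intervals of all 10 genes lay between -0.37 and 0.29 on the log2 scale. MSI1 changed by -0.10, REF6 by -0.09, EMF2 by -0.06, JMJ13 by -0.05, VRN2 by -0.03, SWN by 0.02 and ELF6 by 0.07, none of them past the threshold. The 6 seedling libraries varied more among themselves than the axillary ones, edgeR's common biological coefficient of variation being 8.92% against 5.11%.

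Gene length moved with these changes in axillary tissue. Among all tested genes with more than 4000 exon bases, 78.1% rose in brc1-2 and 5.08% fell, with a median log2 change of 0.38. Genes of 3000 to 4000 bases rose in 59.1% of cases with a median of 0.23, while those of 1000 to 2000 bases had a median of -0.07. After decapitation the medians were 0.27 above 4000 bases and 0.14 from 3000 to 4000 bases. REF6 (4796 bases) and ELF6 (4768) belong to the longest class, and CLF (3514), JMJ13 (3497) and SWN (3403) to the next. The share of genes that rose among those of like length, 78.1% and 59.1% in brc1-2 and 66.8% and 48.6% after decapitation, is the nearer background for these 5 members. For EMF2 (2705 bases) and LHP1 (2035) that share was 35.2% in brc1-2 and 33.2% after decapitation. For VRN2 (1974), MSI1 (1626) and FIE (1563) it was 23.1% and 24.3%.

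With a smooth trend on exon length removed from each library, 7 of the 10 genes were again higher in brc1-2, with a median log2 change of 0.19, though not the same 7. Of all 21539 genes tested in that fit, 6265 were higher and 6572 lower. REF6 went to 0.01 (edgeR quasi-likelihood adjusted p = 0.81) and MSI1 to 0.13 (edgeR adjusted p = 0.0040). CLF remained higher at 0.25, SWN at 0.19, EMF2 at 0.19, ELF6 at 0.18, JMJ13 at 0.28 and FIE, a gene of 1563 bases, at 0.33. After decapitation 7 of the 10 genes were higher, with a median of 0.21, where 6074 of all genes were higher and 7350 lower. The calls of REF6 (0.07, edgeR adjusted p = 0.16) and ELF6 (0.11, edgeR adjusted p = 0.056) ended, while CLF stayed at 0.37, FIE at 0.39, SWN at 0.28 and JMJ13 at 0.21. Between decapitated WT and brc1-2 the calls of MSI1 (0.08) and ELF6 (-0.08) ended and CLF was higher by 0.11 (edgeR adjusted p = 0.045).

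**Figure D3:**
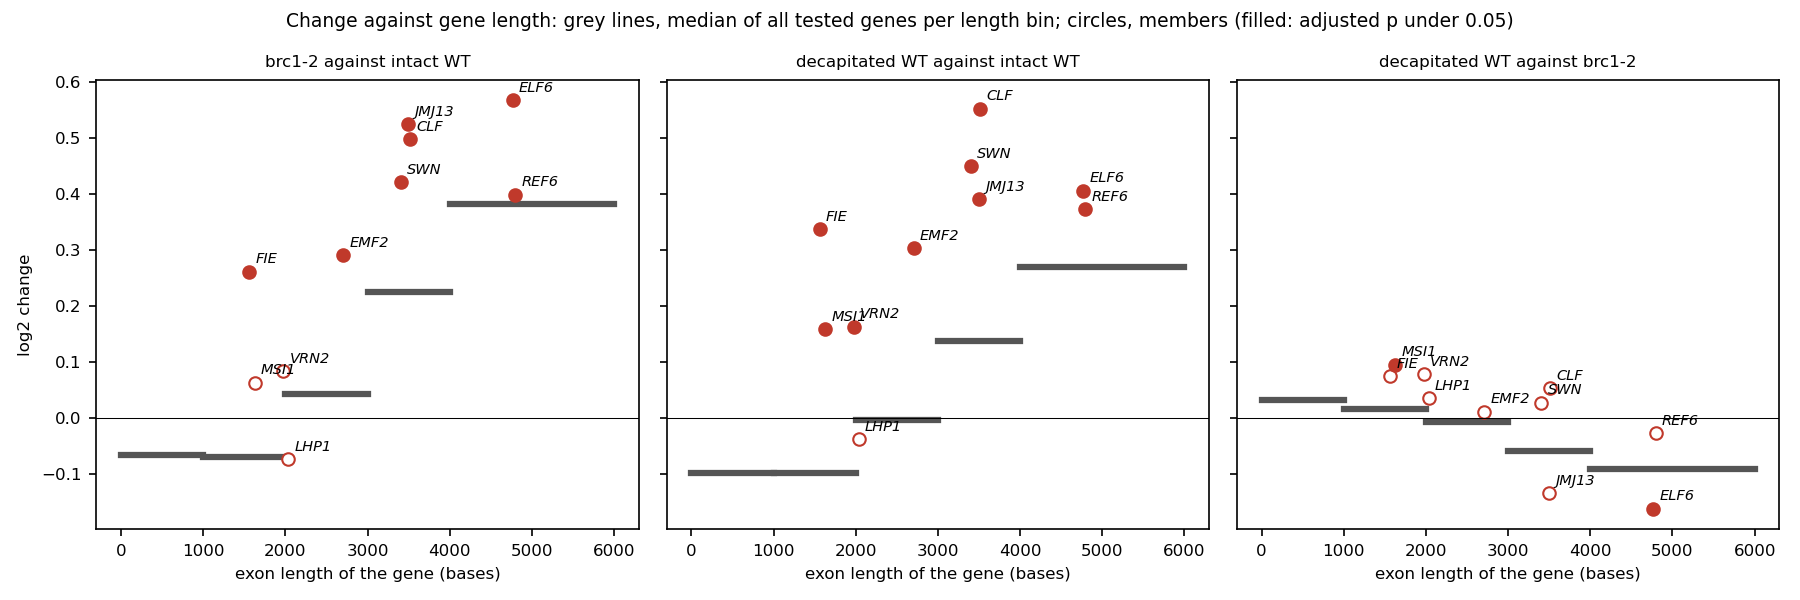
Log2 change (vertical axis) against exon length in bases (horizontal axis) for the 10 genes, with grey steps for the median of all tested genes in each length class (the class above 4000 bases has no upper limit, and the right end of its line is arbitrary). The panels are the 3 axillary comparisons. In brc1-2 the grey median climbs from -0.07 to 0.38 with length, REF6 lies close to it, and FIE, a short gene, stands above the median of its own class.

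Most markers of dividing cells were higher in brc1-2 and after decapitation, as most members were. The summed level of 12 such genes, among them the kinesin gene HIK, the mitotic activator gene CDC20.1 and the replication genes MCM2 and MCM7, was 363 to 374 CPM in intact WT, 547 to 560 in brc1-2 and 739 to 750 after decapitation. Of the 12, 11 rose in brc1-2 and 12 after decapitation, and 10 were higher in decapitated WT than in brc1-2. Of all genes tested, 30.5%, 29.5% and 24.6% were called higher in these comparisons. MCM2 and MCM7 stood at 40.2 and 49.0 CPM in intact WT, 73.1 and 83.3 in brc1-2, and 73.8 and 82.3 after decapitation. In seedlings the sum was 331 to 361 CPM on DMSO and 236 to 257 on rac-GR24, with 10 of 12 lower beside 11.9% of all genes. The summed level of the 10 members was 278 to 283 CPM in intact WT, 341 to 345 in brc1-2 and 343 to 356 after decapitation, and 388 to 407 on DMSO and 379 to 391.9 on rac-GR24. Both sums were higher than in intact WT without overlap, in brc1-2 and after decapitation. In decapitated WT against brc1-2, and on rac-GR24, the dividing-cell sums did not overlap and the members' sums did. A sum can hide genes that moved in opposite directions, as CLF and FIE did on rac-GR24 without passing the threshold.

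The other marker lists moved in ways that differed between the groups. Beside them, 30.5% of all genes tested rose and 30.7% fell in brc1-2, and 29.5% and 33.7% after decapitation. Between decapitated WT and brc1-2 24.6% were higher and 24.3% lower, and on rac-GR24 12.3% and 11.9%. Of 6 leaf photosynthesis genes 5 rose in brc1-2, including RBCS3B (0.66), and 6 fell after decapitation, including LHCB2.1 (-0.75). Both belong to families with near-identical copies. On rac-GR24 3 of the 6 fell, and all 6 were lower in decapitated WT than in brc1-2. Of the 8 genes marking axil and shoot meristem, KNAT1 rose (0.18) and BRC1 fell in brc1-2, while after decapitation CUC3 rose (1.04) and BRC1, STM, KNAT1 and RAX1 fell. On rac-GR24 2 of the 8 rose, BRC1 among them, and 2 fell. Of 5 root markers 3 were tested in axillary tissue. In brc1-2 PYK10 fell (-0.82) and SCR rose (0.26), after decapitation both rose (0.70 and 0.21), and SHR passed in neither. On rac-GR24 PYK10 rose (0.78), and the other 4 did not pass, SCR standing at -0.20. The part of cell division, tissue content or gene length in the changes of the members was not tested.

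Pairs of related genes were also compared as ratios within each library, which do not depend on the library's scaling. The ratios were not corrected for the trend on gene length, and EMF2 (2705 bases) is longer than VRN2 (1974). CLF made up 43.0 ± 1.02% of the summed RPKM of CLF and SWN in intact WT (SD, n = 3), 44.3 ± 0.33% in brc1-2 and 44.7 ± 1.23% after decapitation, and 34.3 ± 1.67% and 36.3 ± 2.098% in DMSO and rac-GR24 seedlings. SWN was thus the more abundant methyltransferase transcript in every group. EMF2 made up 51.1 ± 1.81% of EMF2 and VRN2 in intact WT, 54.7 ± 0.57% in brc1-2 and 53.5 ± 1.90% after decapitation. REF6 made up 55.6 ± 0.52% of REF6 and ELF6 in intact WT, 52.7 ± 0.42% in brc1-2 and 55.1 ± 0.86% after decapitation.

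In brc1-2 the libraries did not overlap with intact WT in any of the 3 ratios, with log2 differences of 0.08 for CLF over SWN, 0.21 for EMF2 over VRN2 and -0.17 for REF6 over ELF6. Each gave p = 0.1 in a two-sided exact permutation test, the smallest value that 3 against 3 libraries allow, and p = 0.3 after Benjamini-Hochberg adjustment over the 12 ratios and comparisons. REF6 over ELF6 was also separated between decapitated WT and brc1-2, by 0.14 (exact permutation p = 0.1). The remaining ratio comparisons overlapped.

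**Figure D4:**
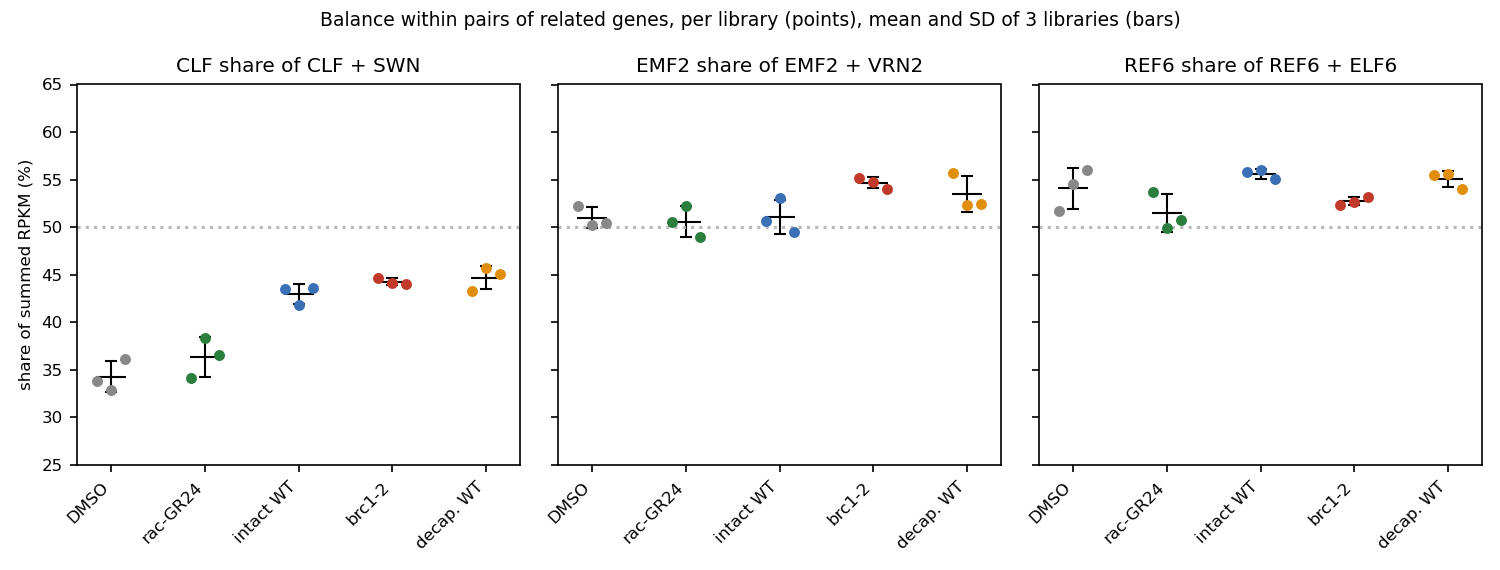
Share of the first gene in the summed RPKM of each pair (vertical axis in percent, shown from 25 to 65) in the 5 groups, with libraries as points and the mean and SD of 3 libraries as bars. CLF stays below 50% in all 15 libraries, and the brc1-2 libraries of REF6 lie below those of both WT axillary groups.

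Of 31 further genes of the Polycomb system and its partners, 26 passed the filter in axillary tissue. In brc1-2 18 rose and 2 fell, with a median log2 change of 0.23, beside 30.5% and 30.7% of all genes tested. The chromatin remodeller genes PKL (0.69 ± 0.03) and BRM (0.54 ± 0.03), the WD40 gene MSI4 (0.47 ± 0.03) and ATX1 (0.74 ± 0.07), which encodes a methyltransferase for the opposing mark on H3K4, had the smallest p. PKL, known for its part in keeping H3K27me3 at embryo genes, went from 75.3 ± 2.82 CPM in intact WT to 121 ± 3.09 in brc1-2 and 116 ± 3.19 after decapitation. After decapitation 15 rose and 2 fell, with a median of 0.27, beside 29.5% and 33.7% of all genes. The smallest p in the list then belonged to PKL (0.62 ± 0.03), MSI4 (0.53 ± 0.03), BRM (0.39 ± 0.03) and ATX1 (0.67 ± 0.07). The largest rise in both comparisons was that of RING1A, a Polycomb ubiquitin ligase gene (0.81 ± 0.09 in brc1-2 and 0.82 ± 0.09 after decapitation). The 2 that fell were the same in both comparisons, the telomere-repeat binding gene TRB1 (-0.14 and -0.12) and the Jumonji gene JMJ30 (-0.63 and -0.91), a clock-linked demethylase gene.

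With the length trend removed, 15 of the 26 rose and 2 fell in brc1-2, and 13 rose and 3 fell after decapitation. Of all 21539 genes tested in that fit, 6265 were higher and 6572 lower in brc1-2, and 6074 and 7350 after decapitation. The changes of single genes in this list are given only without removal of that trend. With the trend left in, 4 of the 26 were higher and 6 lower between decapitated WT and brc1-2, beside 24.6% and 24.3% of all genes. Of all genes above 4000 exon bases, 12.3% were higher and 40.9% lower there. With the trend removed, 3 of the 26 were higher and 3 lower, where 5419 of all genes were higher and 5127 lower. Among those lower with the trend left in were BRM (-0.15), the B3-domain gene VAL1 (-0.22), ULT1 (-0.26) and EMF1 (-0.20). On rac-GR24 1 of 27 tested rose and 2 fell, beside 12.3% and 11.9% of all genes. VAL1 (0.28 ± 0.07) rose, and ULT1 (-0.57 ± 0.12), a trithorax-type regulator gene, and the H3K27 monomethyltransferase gene ATXR6 (-0.67 ± 0.17) fell. VEL3 held 0 counts in all axillary libraries, and VIN3, the cold-induced partner of VRN2, held 0 in intact WT. MEA and FIS2, best known as seed counterparts of CLF and EMF2, were not tested in axillary tissue because of low counts. In seedlings MEA held 22 to 48 counts on DMSO and was tested, without passing on rac-GR24 (-0.41).

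**Figure D5:**
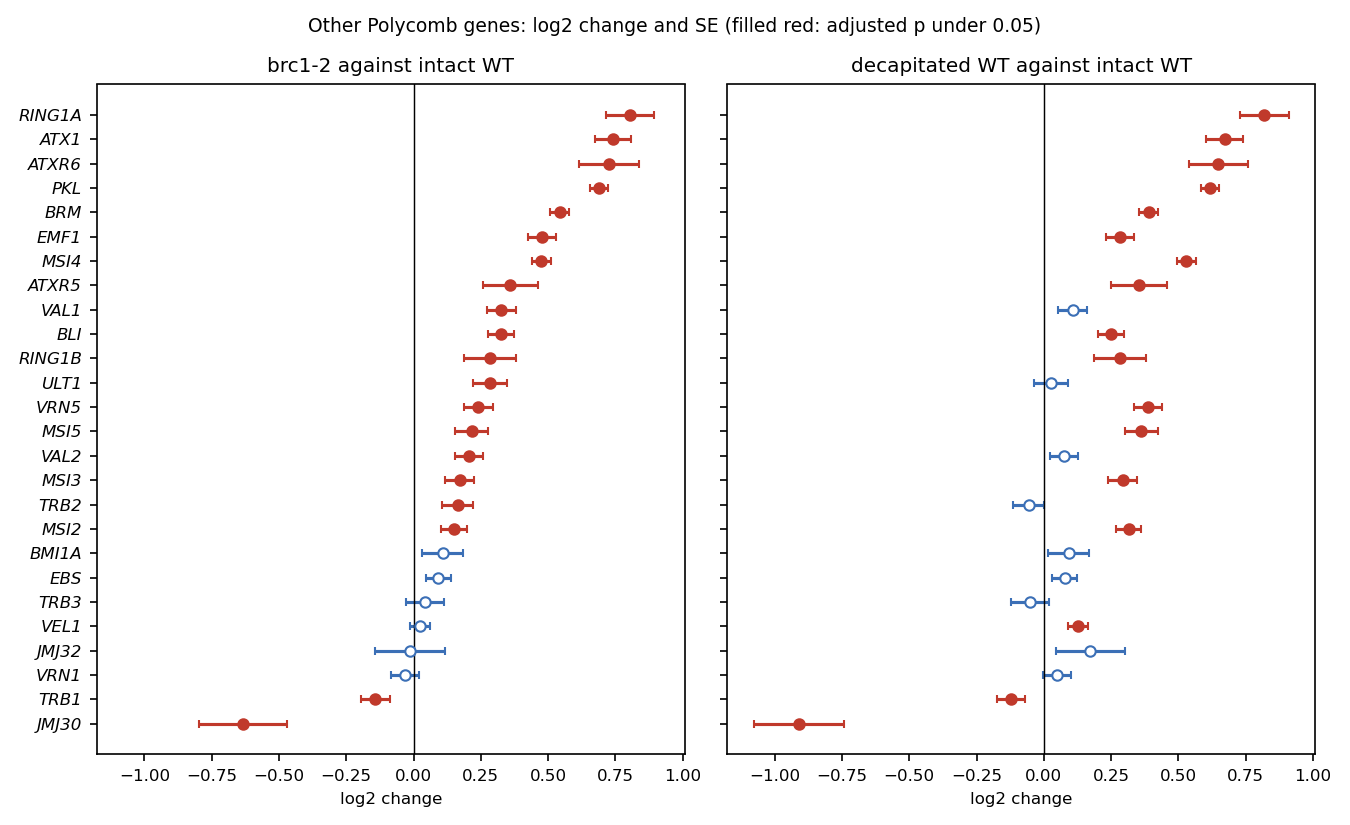
Log2 change with SE (horizontal axis) of the 26 other Polycomb genes tested in axillary tissue, in brc1-2 and in decapitated WT against the same 3 intact WT libraries, with called genes filled in red. Most symbols lie right of 0 in both panels, while JMJ30 and TRB1 are lower in both.

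Genes known as classical targets of H3K27me3 were looked at beside the machinery. Of 24 such genes 16 were tested in axillary tissue. In brc1-2 8 rose and 1 fell, beside 30.5% and 30.7% of all genes tested. The smallest p among the targets belonged to the floral organ genes PI (1.34 ± 0.10), SEP3 (1.09 ± 0.10), SEP1 (1.08 ± 0.12) and AP3 (0.91 ± 0.11). The largest rise was that of the seed dormancy gene DOG1 (1.62 ± 0.36), and KNAT6 (-0.14) fell. With the length trend removed, 8 were higher and 0 lower, so the call of KNAT6 ended. Of all genes in that fit, 6265 were higher and 6572 lower. PI went from 5.58 ± 0.21 CPM in intact WT to 14.2 ± 1.35 in brc1-2. After decapitation 3 rose, among them SEP3 (0.66 ± 0.10), and 5 fell, among them STM (-0.26), KNAT1 (-0.24) and KNAT6 (-0.32). Of all genes tested, 29.5% rose and 33.7% fell after decapitation. With the length trend removed, 3 targets were again higher and 5 lower, where 6074 of all genes were higher and 7350 lower.

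Directly compared, 11 of the 16 targets were lower in decapitated WT than in brc1-2 and 0 were higher, with PI at -1.07 and SEP1 at -0.98. In that comparison 1 of the 10 members was higher and 1 lower, and of all genes tested 24.6% were higher and 24.3% lower. The part of flower buds in the changes of the targets was not tested. On rac-GR24 0 of 13 targets rose and 3 fell, beside 12.3% and 11.9% of all genes. The 3 were SEP3 (-1.82 ± 0.19), KNAT1 (-0.41 ± 0.09) and STM (-0.76 ± 0.20).

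Finally, the pattern of CLF over the 9 axillary libraries was set against that of every tested gene, by the root mean square difference of log2 CPM after centring each gene. The nearest were PDF2 (0.0267), AT1G15200 (0.0281), AT1G80930 (0.0283) and AT1G80070, listed as SUS2 (0.0288). Among the members SWN came nearest at rank 87 of all tested genes, followed by REF6 at rank 270, ELF6 at 558, JMJ13 at 661 and FIE at 936. EMF2 was at rank 1381, VRN2 at 3869 and MSI1 at 4445. LHP1 was farthest, at rank 8792. This is a description over libraries that share one scaling and the differences in depth between them. The ranking was not corrected for the trend on gene length. SWN, REF6, ELF6 and JMJ13 are, with CLF, the members of more than 3000 exon bases.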

How the data were processed

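RNA was measured by RNA-seq in 15 libraries. The authors deposited raw counts per gene, with exon coordinates and lengths, in a seedling and an axillary table whose headers have the featureCounts layout. Per the submitters' processing notes, the build and tools were TAIR10, cutadapt 3.5, HISAT2 2.0.5, SAMtools 1.13, featureCounts 2.0.1 and fastp 0.23.1, with no settings given. The seedling table breaks off in an incomplete line and has 609 genes fewer than the axillary one. Of the axillary columns, 2 carried the name of brc1-2 replicate 2, and they were used as replicates 2a and 2b. No 2 libraries of a group matched within sampling noise (chi-square per degree of freedom 3.05 to 19.03). Per library, 60.82% to 71.8% of the counts up to 20 were even numbers, as when both mates are counted, so halved counts were added as an alternative after the data were seen.

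For each table, low counts were removed with filterByExpr at a minimum count of 10 and total of 15, TMM factors were applied, and edgeR 4.0.16 (R 4.3.3) gave quasi-likelihood p-values, adjusted by Benjamini-Hochberg over all tested genes at a threshold of 0.05. The SE was obtained by dividing the absolute log2 change by the root of its F statistic. RPKM and CPM were calculated from the counts. The test was checked on simulated counts. Members and lists (31 other Polycomb genes, 24 Polycomb targets, and markers of dividing cells, meristem, leaf, root and anther) were chosen with earlier results of these data known. Of 37 other Polycomb genes written, 6 were dropped because the reference table did not pair the identifier with the name. Named genes were all members and up to 4 per list with the smallest p. Others, such as MS1, KNAT6, TRB1, JMJ30, RING1A and DOG1, were chosen after their values were seen. The promoter motif search that was planned was not run, since no sequence was at hand. Fits were repeated with the size factors of DESeq2, with upper-quartile factors, with a loess trend on length removed, with DESeq2 1.42.0 or limma-voom 3.58.1, unfiltered, at a threshold of 0.01, on the compared groups alone, with the replicate number as a block, and without each library in turn.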

Additional observations from a re-analysis of the deposited data

How the results depend on the processing

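The counts of members called for rac-GR24 (0 higher, 0 lower), brc1-2 (7 higher, 0 lower) and decapitation (9 higher, 0 lower) stayed within 1.5 times under every alternative that was run. Between decapitated WT and brc1-2 the count of members higher went from 1 to 0 with upper-quartile factors and at a threshold of 0.01, and from 0 to 1 over libraries left out. The count lower went from 1 to 0 with the length trend removed and at a threshold of 0.01, and from 0 to 1 over libraries left out. For rac-GR24 a threshold of 0.01 gave 1665 genes higher and 1534 lower in place of 2601 and 2513. The causes were not tested, apart from the stricter threshold itself. No result turned its direction among those called.

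Pairing of libraries by number was not detected. After group means were subtracted, same-numbered libraries correlated at 0.086, -0.034 and -0.058 in seedlings. In axillary tissue the values were 0.019, 0.007 and 0.008, and not each library correlated best with its own number. Such values cannot exclude that same-numbered libraries were handled together. With the replicate block, 2503 genes were higher and 2308 lower on rac-GR24, and 6436 and 7337 after decapitation (6349 and 7254 without), with 0 and 9 members higher. For brc1-2 no paired analysis was possible because 2 columns carry one number. Intervals cover counting and library spread only, and 3 libraries a group limit the precision.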
